A study of Mus musculus with 6 samples.

Results

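The genes described are 9 complement proteases, components and regulators: *C1ra*, *C1s1*, *C4b*, *C3*, *Cfb*, *Serping1*, *Cfi*, *Cd55* and *Clu*. They were taken by name, through their Ensembl identifiers, from an exonic count table of 55401 genes, and all 9 were among the 22318 genes that passed the filter on low counts (2 or more counts in 5 or more of the 6 libraries). The table comes from bulk RNA-seq of cultured Schwann cells (SCs), the glia of peripheral nerve, which were taken as primary cells from the dorsal root ganglia (DRGs) of adult C57BL/6 mice. One group of 3 cultures came from *Plxnb1-/-* mice, which carry the *Plxnb1* tm1Matl allele, a transmembrane-lacZ-neo gene trap cassette in the locus of the axon guidance receptor Plexin-B1. The other group of 3 came from littermates that the labels call WT; elsewhere in the study heterozygous littermates also served as controls. SCs of both genotypes were grown in forskolin and neuregulin and depleted of fibroblasts with magnetic anti-Thy1 sorting. Sex, and whether a culture pooled animals, were not given in the sources used here. Nor was it given whether the 3 replicates of a genotype were grown separately, though they are called cultures here. The p-values therefore measure the spread between these 6 libraries only.

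Complement is a cascade of plasma and tissue proteins that tags surfaces for uptake by phagocytes. In the classical pathway the proteases C1r and C1s are bound to C1q, and C1r activates C1s, which cleaves C4 and C2. In the alternative pathway factor B is the protease that amplifies the deposition of C3. C1 inhibitor, factor I, CD55 and clusterin hold the cascade in check at successive steps. In peripheral nerve, complement is known for its part in the clearance of myelin debris after injury.

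Total counts lay between 59252048 and 77280964 per library, where 3 counts equal 0.0388 to 0.0506 CPM, a floor that covers counting error only. CPM, the normalised read count used below, were scaled to the library size with edgeR's TMM factors. *Plxnb1* was lower in every *Plxnb1-/-* culture (16.1 ± 2.75 CPM against 67.8 ± 26.1 in WT, SD, n = 3 each; adjusted p = 0.0449, edgeR's quasi-likelihood test). On the first principal component the WT cultures (−3.58, −47.4 and −7.52) lay apart from the *Plxnb1-/-* cultures (10.3, 14.1 and 34.0). WT replicate 2 and *Plxnb1-/-* replicate 3 stood farthest from the others there, and on the second component WT replicate 1 did (39.1). All 12 SC markers were tested, with summed levels of 3373 to 4595 CPM, and *Sox10* averaged 486 CPM in WT and 550.2 CPM in *Plxnb1-/-* cultures. Other SC markers were far lower, such as *S100b* (7.56 and 7.65 CPM) and *Gfra3* (2.02 and 3.96 CPM). The 10 fibroblast markers summed to 5851 to 8188 CPM, so transcripts of the fibroblast list stayed abundant in all 6 libraries after the sort, and the 15 macrophage markers summed to 141 to 206 CPM.

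Several of the 9 genes have near-identical copies or overlapping neighbours, and reads that match both may have been split between them. The case that bears most on the result below is *C4b*, the mouse gene for complement C4, and its neighbour *C4a*, the sex-limited protein gene. Their transcripts were 95.9% identical over 5378 aligned bases, with one identical run of 433 bases, and 28.2% of the 2716 stretches of 60 coding bases of *C4b* had no difference from *C4a*. The stretch that separates the copies best had 13 differences. It lies in exon 21 of 41 of *C4b* (GRCm38, chr17:34735430-34735489, minus strand), within the coding sequence. It is shown, with the differing bases in capitals, because reads over such positions can be assigned to one copy:
C4b: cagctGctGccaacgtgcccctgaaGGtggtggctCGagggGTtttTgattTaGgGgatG
C4a: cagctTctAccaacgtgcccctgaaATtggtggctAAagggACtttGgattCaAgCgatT
The deposited counts gave *C4a* between 2.82% and 8.80% of the counts of the pair, so nearly all counts lay on *C4b*. The like shares were 0% to 4.38% for *C1rb* beside *C1ra*, 1.55% to 5.75% for *C1s2* beside *C1s1*, and 0% to 0.460% for *Cd55b* beside *Cd55*. Shared windows of 50 bases made up 50.8% of *C1ra* (with *C1rb* and *Gm18840*) and 39.0% of *C1s1* (with *C1s2* and *Gm16567*). They made up 35.2% of *C4b* (with *C4a*) and 15.5% of *Cd55* (with *Cd55b* and *Gm16083*). How reads from these windows were assigned was not tested, so these levels are uncertain. For *Cfb*, 81.4% of windows of 50 bases also lie in *Gm20547*, a transcript that joins *C2* and *Cfb* on the same strand, so its level is uncertain. *C1s1* shares 18.4% of its exon bases with the antisense gene *Gm16567*, and *Cd55* shares 2.10% with *Gm16083*; the library kit keeps the strand, but the strand setting of the counting was not given in the sources used here. *C3*, *Serping1*, *Cfi* and *Clu* shared no window of 50 bases with another gene.

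Levels can be compared between genes only per length, so CPM were divided by kilobases of exon. *Serping1*, which encodes C1 inhibitor, was the highest of the 9 at 12.2 ± 2.18 CPM per kilobase (SD over 6 libraries), above 78.7% of all tested genes. *Cd55* (3.15 ± 0.501) and *C4b* (2.36 ± 0.764) came next, near the middle of all tested genes. *C1s1* (1.31 ± 0.166) and *C1ra* (1.27 ± 0.111), the protease pair of the C1 complex, lay side by side, and *Cfb* followed at 0.707 ± 0.0427. *Clu* (0.225 ± 0.0694), *Cfi* (0.151 ± 0.0960) and *C3* (0.0546 ± 0.0172) were the lowest, and only 8.68% of tested genes lay below *C3*. Reads across exon junctions were lost in the alignment, which can lower genes of many short exons more than others. *C3* has 42 separate exon blocks in 5143 bases and *C4b* 40 in 5695, against 8 in 2325 for *Serping1* and 10 in 4853 for *Cd55*. The effect of this loss on the order was not tested. Among the 8 neighbouring pairs in this order, *Serping1* over *Cd55*, *C4b* over *C1s1*, *C1ra* over *Cfb* and *Cfb* over *Clu* kept their order in 6 of 6 libraries (exact two-sided sign-flip test p = 0.0312, the smallest that 6 libraries can give; 0.0625 after Benjamini-Hochberg adjustment over the 8 pairs). The pairs *Cd55* and *C4b* (5 of 6, exact p = 0.125), *C1s1* and *C1ra* (3 of 6, exact p = 0.688), *Clu* and *Cfi* (5 of 6, exact p = 0.219) and *Cfi* and *C3* (5 of 6, exact p = 0.0625) did not separate in every library. The pairs and their direction were taken from the means of these same 6 libraries, which hold both genotypes. The sign-flip p-values therefore describe the order and are no independent test of it. The place of *Cfb* depends on how reads shared with *Gm20547* were assigned, so its order against its neighbours is not settled by these counts.

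**Figure D1:**
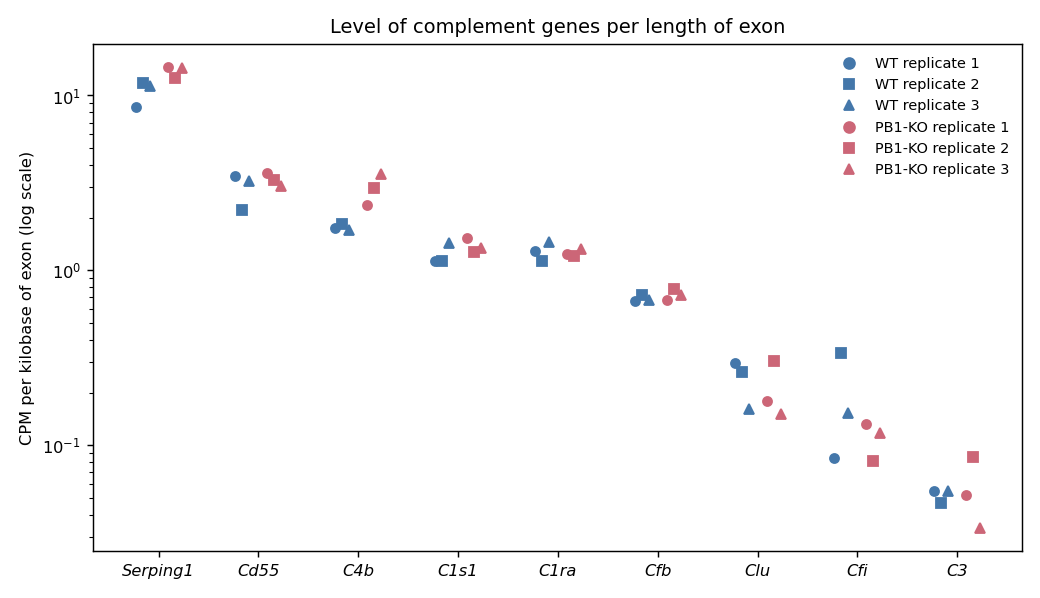
Level of each of the 9 genes per length, as CPM per kilobase of exon on a log axis, with one point per culture (blue, WT; red, *Plxnb1-/-*, written PB1-KO in the key). *Serping1* lies above every other gene in each of the 6 libraries, and *C3*, *Cfi* and *Clu* make up the low end.

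The comparison of genotypes asks how gene expression in SCs differs when Plexin-B1 is absent. *C4b* and *Serping1* were higher in all 3 *Plxnb1-/-* cultures than in any WT culture, and the other 7 genes overlapped between genotypes. A gene was called where its adjusted p was under 0.05 and its log2 fold change exceeded 0.25 in size. No gene of the 9 was called by edgeR, as against 0.0358% of all tested genes (0.00448% higher and 0.0314% lower in *Plxnb1-/-* SCs). At an unadjusted p below 0.05, edgeR gave *C4b* and *Serping1*, 2 of 9, beside 13.7% of all tested genes (6.95% higher and 6.78% lower). DESeq2, the tool named by the study, called the same 2 at the same limits, beside 1.5% of all tested genes (0.69% higher). Without a filter on low counts edgeR called *C4b* (adjusted p = 0.00324), beside 0.949% of the genes then tested. Cultures did not overlap between genotypes for 19.7% of all tested genes (9.3% higher and 10.4% lower). In 6 of the 9 genes the log2 fold change was above 0 and in 3 below, with a median of 0.14, beside 0.0050 over all tested genes. In bulk RNA, fewer or more cells of one type cannot be told apart from less or more RNA per cell.

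*C1ra*, the protease that activates C1s, was measured at 3.86, 3.37 and 4.34 CPM in WT and at 3.68, 3.61 and 3.94 CPM in *Plxnb1-/-* cultures. The *Plxnb1-/-* values fell within the WT range. The log2 fold change was −0.045 ± 0.12 (SE; edgeR's adjusted p = 0.900), with a 95% interval of the fold from 0.809 to 1.16. *C1s1*, the protease that cleaves C4 and C2, was measured at 3.52, 3.52 and 4.48 CPM in WT and at 4.82, 3.99 and 4.18 CPM in *Plxnb1-/-* cultures. WT replicate 3 lay above 2 of the *Plxnb1-/-* cultures. The log2 fold change was 0.17 ± 0.13 (edgeR's adjusted p = 0.585), and its interval reached a fold of 1.38. Without *Plxnb1-/-* replicate 1 the log2 fold change was 0.085, and without WT replicate 3 it was 0.30.

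*C4b*, which encodes a substrate of C1s, had the highest positive log2 fold change and the smallest p of the 9. The gene (ENSMUSG00000073418.4, GRCm38 chr17:34728380-34743882, minus strand) was measured at 10.0, 10.4 and 9.66 CPM in WT and at 13.5, 16.8 and 20.4 CPM in *Plxnb1-/-* cultures. The WT cultures were tightly grouped (coefficient of variation 3.89%), the *Plxnb1-/-* cultures were spread (20.4%), and the lowest of them still exceeded the highest WT value. The means were 10.0 ± 0.391 and 16.9 ± 3.44 CPM (SD, n = 3 each), a fitted fold of 1.68 with a 95% interval of 1.37 to 2.07. The log2 fold change was 0.75 ± 0.13 (SE). Its unadjusted p of 3.01e-04 ranked 31 among all tested genes in edgeR, with an adjusted p of 0.199, while DESeq2 gave an adjusted p of 1.66e-05. A two-sided exact permutation test over the 6 cultures gave p = 0.1, the smallest that 3 against 3 allows. Leaving out one library in turn moved the log2 fold change between 0.60 (without *Plxnb1-/-* replicate 3, the highest) and 0.89 (without *Plxnb1-/-* replicate 1), and DESeq2 called *C4b* in 6 of 6 such fits, with adjusted p from 1.69e-10 to 0.00393. With the counts of *C4a* added, the log2 fold change was 0.71. *C4a* itself averaged 0.738 CPM in WT and 0.716 CPM in *Plxnb1-/-* cultures (log2 fold change −0.047; edgeR's adjusted p = 0.949), and the difference therefore lay in counts on *C4b*.

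*C3*, the component on which all pathways meet, was close to the floor, with 12 to 32 counts per library. It was measured at 0.281, 0.239 and 0.282 CPM in WT and at 0.268, 0.441 and 0.173 CPM in *Plxnb1-/-* cultures, so the *Plxnb1-/-* values lay on both sides of the WT values. The interval of its fold, 0.614 to 1.96 (edgeR's adjusted p = 0.905), held both no difference and the fold seen in *C4b*, and the sign turned when *Plxnb1-/-* replicate 2 was left out (log2 fold change −0.27). *Cfb*, the protease of the alternative pathway, was measured at 1.89, 2.03 and 1.91 CPM in WT and at 1.92, 2.21 and 2.03 CPM in *Plxnb1-/-* cultures. The genotypes overlapped, and the log2 fold change was 0.079 ± 0.12 (edgeR's adjusted p = 0.816), with a fold of 1.28 at the upper bound. With one library left out it ranged from 0.024 (without *Plxnb1-/-* replicate 2) to 0.12 (without *Plxnb1-/-* replicate 1).

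**Figure D2:**
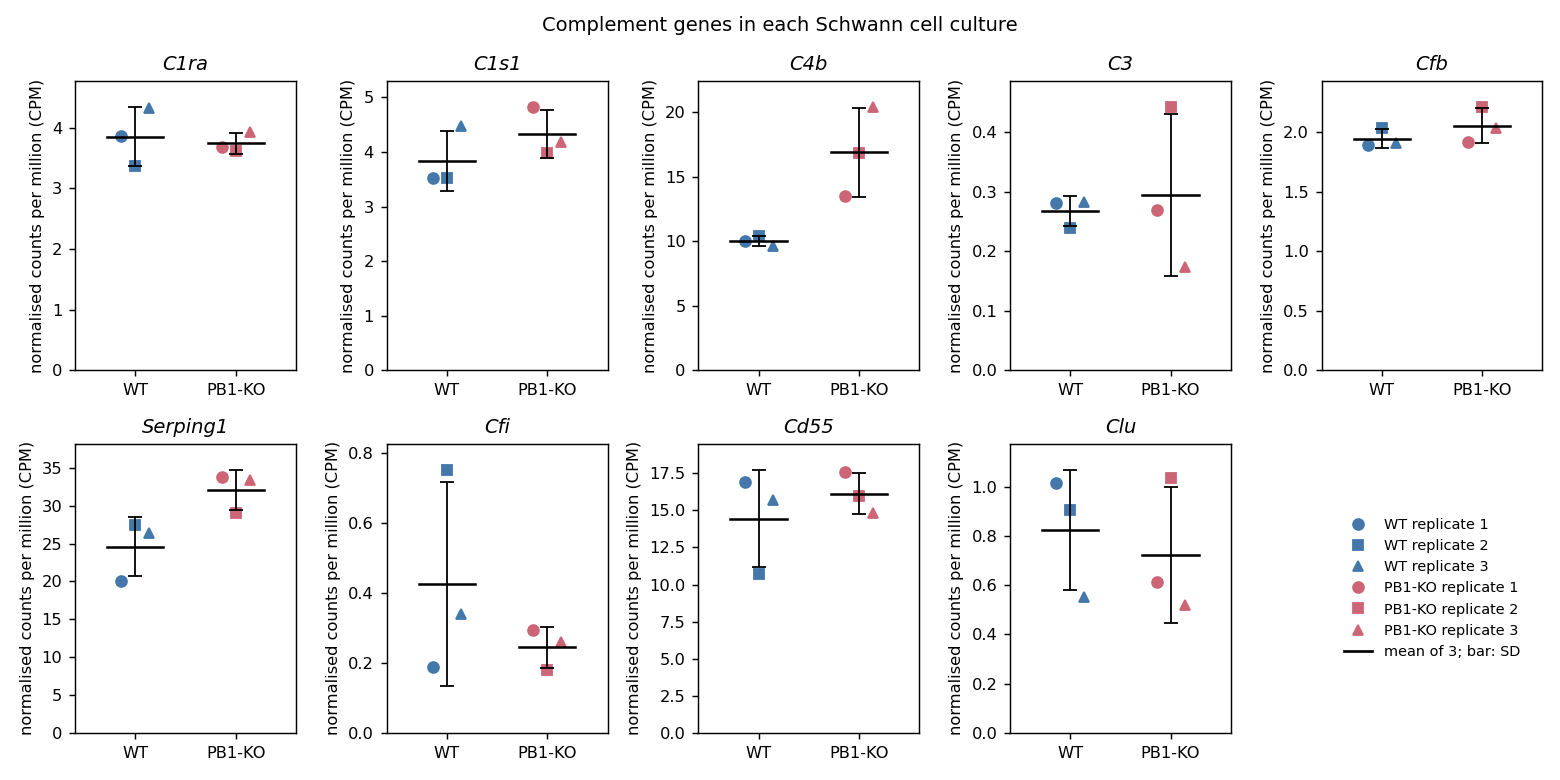
Normalised CPM of each of the 9 genes in the 3 WT (blue) and 3 *Plxnb1-/-* (red, PB1-KO) cultures, on linear axes from 0, with the mean (line) and SD (bar). Every *Plxnb1-/-* culture lies above every WT culture for *C4b* and *Serping1*, and the genotypes overlap for the other 7 genes.

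*Serping1* encodes the protein that inactivates C1r, C1s and the lectin pathway proteases. It was the 1 regulator of 4 whose genotypes did not overlap, beside 19.7% of all tested genes (9.3% higher). The gene (ENSMUSG00000023224.12, GRCm38 chr2:84765387-84775444, minus strand) was measured at 20.1, 27.4 and 26.4 CPM in WT and at 33.8, 29.1 and 33.4 CPM in *Plxnb1-/-* cultures. WT replicate 1 was the lowest, and the gap between WT replicate 2 and *Plxnb1-/-* replicate 2 was small. The means were 24.6 ± 3.95 and 32.1 ± 2.62 CPM (SD, n = 3 each), a fitted fold of 1.30 with a 95% interval of 1.09 to 1.55. The log2 fold change was 0.38 ± 0.11 (SE), and the adjusted p was 0.275 in edgeR, where the gene ranked 611 by p, and 0.0423 in DESeq2. The exact permutation p was 0.1. DESeq2 called *Serping1* in only 1 of the 6 fits that left out a library (adjusted p from 0.00906, without WT replicate 2, to 0.456, without *Plxnb1-/-* replicate 3), and without WT replicate 1 the log2 fold change was 0.26.

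*Cfi*, the protease that cuts C3b and C4b fragments with the help of cofactors, was low, with 12 to 44 counts per library. It was measured at 0.188, 0.752 and 0.339 CPM in WT and at 0.294, 0.179 and 0.260 CPM in *Plxnb1-/-* cultures. WT replicate 2 alone was high, and the log2 fold change of −0.78 ± 0.48 (edgeR's adjusted p = 0.508) shrank to −0.11 without it. *Cd55*, a membrane protein that speeds the decay of C3 convertases, was measured at 16.9, 10.7 and 15.7 CPM in WT and at 17.6, 15.98 and 14.8 CPM in *Plxnb1-/-* cultures. WT replicate 2 was the lowest, the genotypes overlapped, and the log2 fold change of 0.16 ± 0.15 (edgeR's adjusted p = 0.677) was −0.011 without that library. *Clu*, which encodes clusterin, a fluid-phase inhibitor of the terminal complex, was measured at 1.02, 0.905 and 0.551 CPM in WT and at 0.613, 1.03 and 0.519 CPM in *Plxnb1-/-* cultures. Each genotype held high and low values, and the log2 fold change of −0.18 ± 0.31 (edgeR's adjusted p = 0.842) was 0.0039 without *Plxnb1-/-* replicate 3.

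Levels of cell type markers are given beside the values of *C4b* and *Serping1*; edgeR called 0 of them in any list, and DESeq2 called 0 fibroblast, satellite glia, neuron, endothelial and mural markers. The summed level of the 15 macrophage markers was 141 to 172 CPM in WT and 184 to 206 CPM in *Plxnb1-/-* cultures, with a log2 fold change above 0 in 15 of 15. DESeq2 called 3 of the 15 (*Lyz2*, *Cx3cr1* and *C1qb*), beside 1.5% of all tested genes. The 12 SC markers summed to 3373 to 4001 CPM in WT and 4045 to 4595 CPM in *Plxnb1-/-* cultures, with 11 of 12 above 0, and DESeq2 called *Egfl8* and *Gfra3*. The 10 fibroblast markers summed to 6185 to 8188 CPM in WT and 5851 to 6110 CPM in *Plxnb1-/-* cultures, with 9 of 10 below 0. Of the smaller lists, 4 satellite glia markers summed to 1070 to 1257 CPM in WT and 1296 to 1324 CPM in *Plxnb1-/-* cultures, 8 neuron markers to 15.1 to 18.9 and 18.7 to 29.6 CPM, and 6 endothelial and mural markers to 527 to 655 and 487 to 534 CPM. The sums did not overlap between genotypes for the macrophage, SC, fibroblast and satellite glia lists, and no marker of any list was at or below 3 counts in every library. Single markers were higher without overlap in 8 of 15 macrophage, 5 of 12 SC, 1 of 4 satellite glia and 1 of 8 neuron genes. They were lower without overlap in 4 of 10 fibroblast genes. Over all tested genes, 9.3% were higher and 10.4% lower without overlap, and the log2 fold change was above 0 in 11491 of 22318.

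*C4b* and *Serping1* were then set against these sums, a step chosen after the values had been seen. Per 1000 CPM of SC markers, *C4b* was at 2.52, 3.10 and 2.41 CPM in WT and at 3.34, 3.75 and 4.44 CPM in *Plxnb1-/-* cultures, a ratio of means of 1.43 with no overlap. Per 1000 CPM of macrophage markers it was at 58.2, 65.2 and 68.3 CPM in WT and at 67.9, 81.4 and 111 CPM in *Plxnb1-/-* cultures, a ratio of 1.36 in which *Plxnb1-/-* replicate 1 lay within the WT range. Against fibroblast markers the ratio was 1.95 without overlap. A single gene made up much of these sums, *Lyz2* 56.1% to 59.6% of the macrophage sum and *Col3a1* 74.2% to 76.4% of the fibroblast sum. Without those genes the ratios of *C4b* were 1.41 and 1.94, both without overlap. *Serping1* had a ratio of 1.12 against SC markers and of 1.04 against macrophage markers, with overlap in both, and of 1.53 against fibroblast markers without overlap (1.08 with overlap and 1.52 without overlap once *Lyz2* and *Col3a1* were left out). The part of cell composition in either difference was not tested further.

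**Figure D3:**
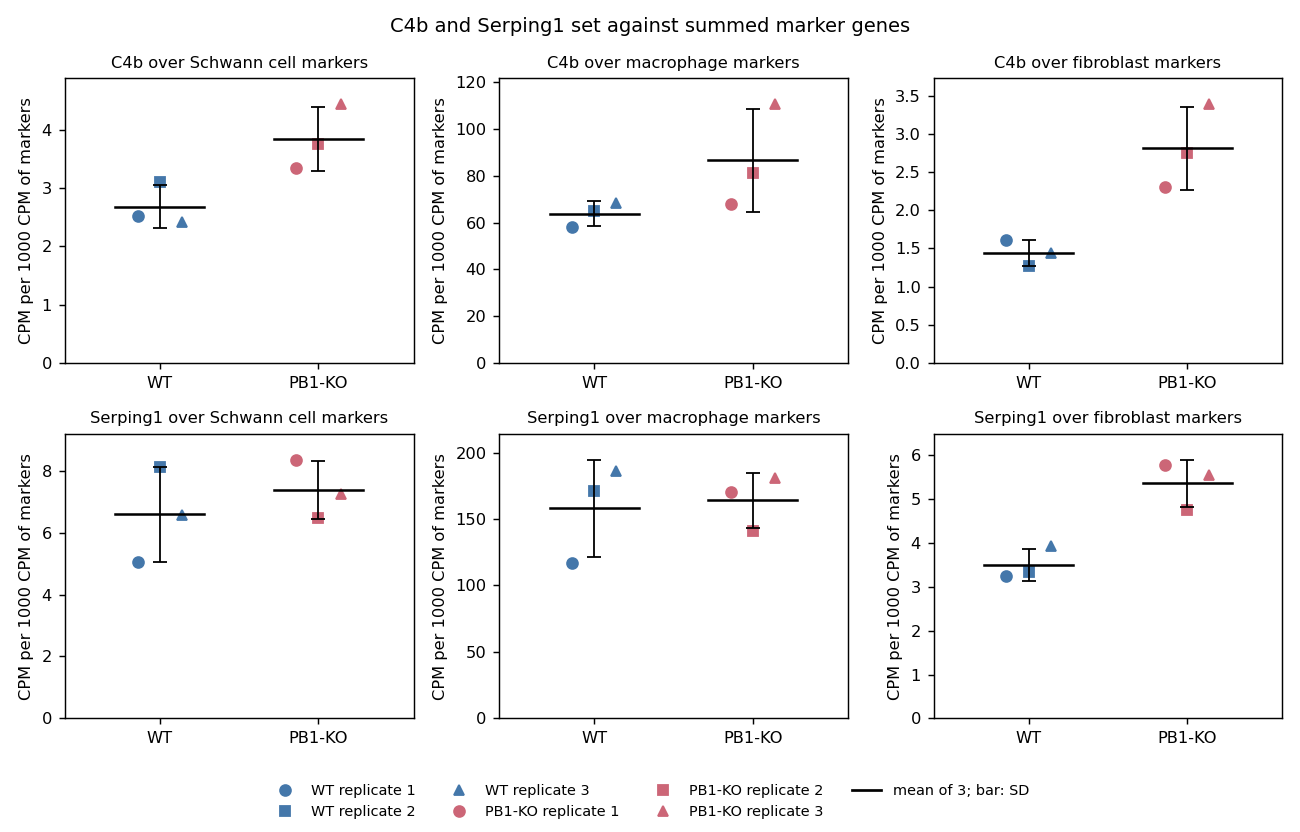
*C4b* (top) and *Serping1* (bottom) in CPM per 1000 CPM of summed SC, macrophage or fibroblast markers, one point per culture with the mean and SD (blue, WT; red, *Plxnb1-/-*, PB1-KO). Genotypes are apart for *C4b* against SC and fibroblast markers and for *Serping1* against fibroblast markers, and overlap in the other 3 panels.

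The rest of the complement system was described from a list of 47 other genes, of which 33 passed the filter on low counts. The log2 fold change was above 0 in 22 and below in 11, with a median of 0.14, edgeR called 0, and 5 higher and 2 lower genes had an unadjusted p below 0.05 (6.95% and 6.78% over all tested genes). DESeq2 gave an adjusted p for 21 of the 33 and called 1, *C1qb*, beside 1.5% of all tested genes. Among recognition molecules and classical or lectin proteases, 10 of 13 tested genes were above 0. *C1qb*, a chain of the C1q molecule made by macrophages, was measured at 10.9, 9.72 and 9.35 CPM in WT and at 13.1, 14.1 and 11.7 CPM in *Plxnb1-/-* cultures. The genotypes did not overlap, and the log2 fold change was 0.38 (adjusted p = 0.266 in edgeR and 0.0215 in DESeq2). The other chains, *C1qa* (0.21) and *C1qc* (0.32), overlapped between genotypes, and all 3 chains are also among the 15 macrophage markers. *C2*, which joins C4 in the classical C3 convertase, averaged 1.94 CPM in WT and 2.33 CPM in *Plxnb1-/-* cultures (0.26), with 42.8% of its exon bases shared with *Gm20547*. *Masp1* (0.51) and *Masp2* (0.10), the lectin pathway proteases, and the collectin *Colec12* (0.078) had intervals that held 0. *C1s2*, the copy of *C1s1*, was at 0.120 and 0.207 CPM (0.79; edgeR's adjusted p = 0.556).

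Only 1 of 2 further alternative pathway genes was tested, the stabilising factor properdin, *Cfp* (log2 fold change 0.14). Of 7 terminal pathway genes, 2 were tested, *Hc* (complement C5, −0.18) and *C8g* (0.13), and *C6*, *C8a*, *C8b* and *C9* had no count in any library, as had *Cfd*, *Mbl1* and *Fcnb*. The RNA for most of the membrane attack complex was therefore not detectable at this depth and with this alignment. Of 12 further regulators, 9 were tested, with 4 above 0 and 5 below. *Cr1l*, a membrane inhibitor of C3 convertases, averaged 60.6 ± 3.38 CPM in WT and 55.3 ± 3.11 CPM in *Plxnb1-/-* cultures, lower without overlap (−0.13; edgeR's adjusted p = 0.359). *Csmd1*, a membrane inhibitor, was at 37.4 and 51.1 CPM (0.45; adjusted p = 0.293 in edgeR and 0.0507 in DESeq2), with overlap. *Cd59a*, which blocks the membrane attack complex, was at 36.9 and 41.2 CPM (0.16), and *Vtn* at 4.27 and 3.43 CPM (−0.31). Of 9 receptors, 8 were tested, with 6 above 0. These included the anaphylatoxin receptors *C3ar1* (0.25) and *C5ar1* (0.35) and the integrin chains *Itgam* (0.32), *Itgax* (0.24) and *Itgb2* (0.17), while *Cd93* was at −0.089. DESeq2 gave an adjusted p for 6 of the 8 tested receptors and called 0.

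**Figure D4:**
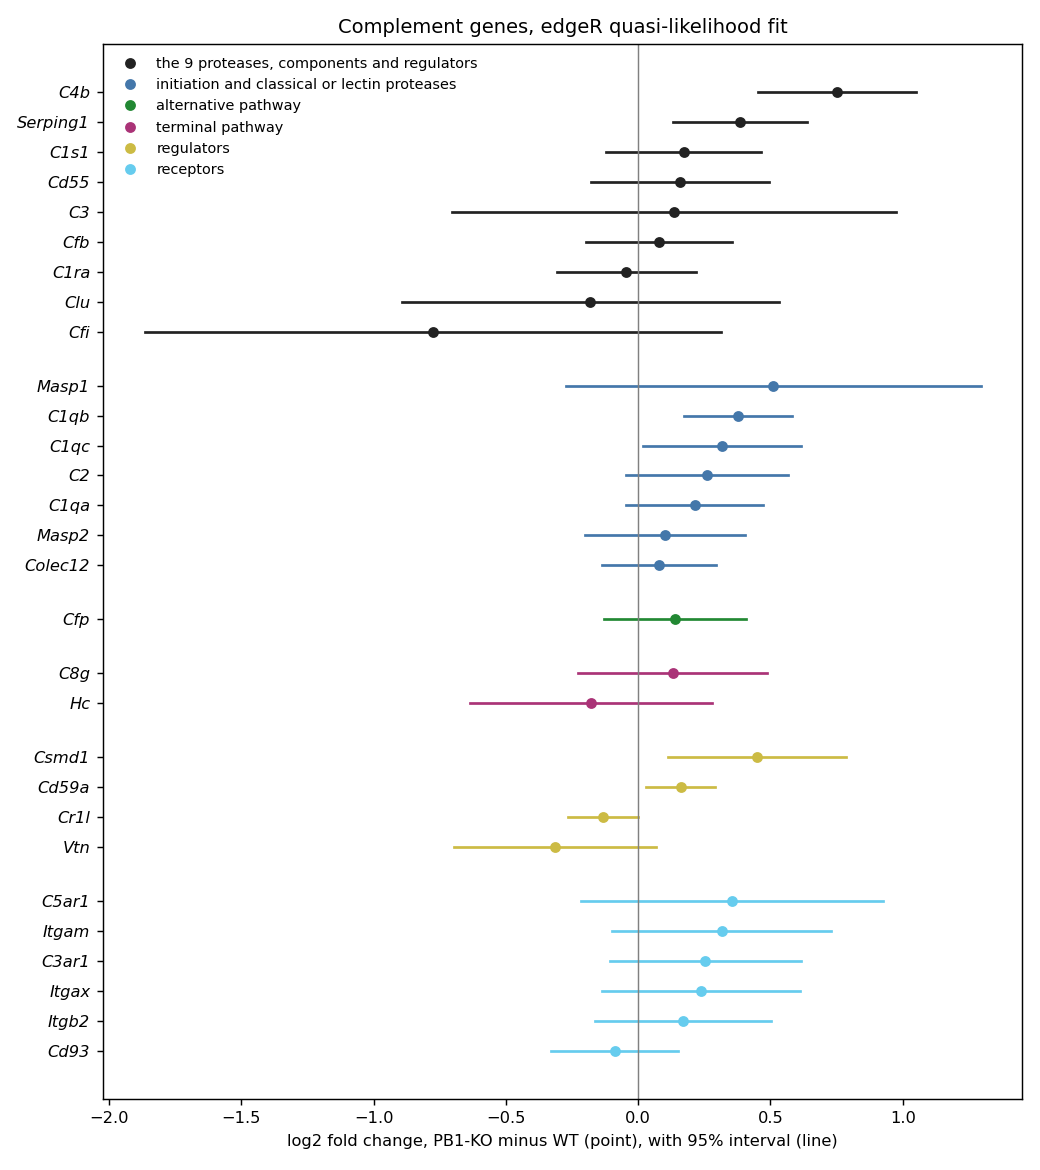
Log2 fold change (*Plxnb1-/-*, PB1-KO, minus WT; point) with its 95% interval (line) from edgeR for the 9 genes (black) and for other complement genes, as named in the text, with a mean of at least 1 CPM in either genotype, coloured by role. Among the 9, the intervals of *C4b* (0.45 to 1.05) and *Serping1* (0.13 to 0.64) lie above 0, and no gene shown passed the adjusted threshold in edgeR.

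Cytokines and signalling genes known to induce complement were also examined, as 24 genes of which 21 were tested. The log2 fold change was above 0 in 9 and below in 12, and edgeR called 0, with 4 of 21 at an unadjusted p below 0.05 (13.7% over all tested genes). *Il1r1*, the receptor of interleukin-1, averaged 10.4 CPM in WT and 13.4 CPM in *Plxnb1-/-* cultures (log2 fold change 0.36; adjusted p = 0.266 in edgeR), higher without overlap, and was the 1 gene that DESeq2 called (adjusted p = 0.0152, beside 1.5% of all tested genes called). *Cebpb* (−0.21), *Irf1* (−0.086), *Rela* (0.074) and the shared cytokine receptor chain *Il6st* (0.15) had smaller log2 fold changes. *Cebpb* and *Irf1* were lower without overlap, and *Il6st* was higher without overlap. Of the 21 tested genes, 4 were higher and 2 lower without overlap, beside 9.3% and 10.4% of all tested genes. *Il6*, an acute-phase cytokine, was at 6.90 and 6.68 CPM, while *Ifng* and *Ifnb1* had no count in any library.

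Over 14991 genes and 6 libraries, the pattern most like that of *C4b* was sought as the smallest root mean square difference of centred log2 CPM. *Slc1a3*, the glial glutamate transporter GLAST, came first (0.0874), at 0.828, 0.940 and 0.791 CPM in WT and at 1.19, 1.26 and 1.73 CPM in *Plxnb1-/-* cultures. It was followed by *Gm47316* (0.122) and by the potassium channel *Kcnma1* (0.134). The choice fixes that these genes share the pattern of *C4b*.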

How the data were processed

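The authors trimmed the reads with Trim Galore 0.6.5, aligned them to mm10 with Bowtie2 2.4.1, which does not span introns, removed duplicates with SAMtools 1.10 and counted reads on exons with featureCounts. The deposited counts carry no normalization, and the deposited FPKM, computed by the authors, use the span of the gene as its length (within 1% for 99.5% of 13619 genes). Removing duplicates can lower the counts of abundant genes, and reads across exon junctions are lost.

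Symbols, positions and transcripts came from GENCODE's GRCm38 annotation, in an older release than that of the authors. 55141 of 55401 identifiers matched. Groups followed the genotype in the labels. Genes with 2 or more counts in 5 or more libraries were fitted with edgeR 4.0.16 (TMM, quasi-likelihood test, a single term for genotype) in R 4.3.3, with Benjamini-Hochberg adjustment over 22318 genes. DESeq2 1.42.0 and limma 3.58.1 were alternatives, with other filters and normalizations, the counts of copies added, and each library left out. The fits were tested on simulated data. Copies were aligned with BLAST 2.17.0. Adjusted p given as NA by DESeq2 were left as NA, among the 9 for *C3*, *Cfi* and *Clu*. DESeq2 gave an adjusted p for 14960 of the 22318 tested genes and for 18 of the 21 tested inducers. Genes without one were counted as tested but could not be called, also in the share of 1.5%.

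The 9 genes, the lists and the rule for named genes were chosen with earlier results of these data known. The rule named the 9 genes, *Plxnb1*, their copies, other complement genes with a mean of at least 1 CPM in either genotype, the C1q chains, the 6 inducers with the lowest unadjusted p, and the 3 genes most like *C4b*. A few genes that the rule or the lists hold are not reported here. *Il6* and genes with no count were added once values were known, as were the DESeq2 fits without single libraries, the fit without both outlying libraries, and the ratios to marker sums.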

Additional observations from a re-analysis of the deposited data

How the results depend on the processing

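Among the 9 complement genes, where edgeR called 0, DESeq2 called 2 (*C4b* and *Serping1*), and edgeR without a filter on low counts called 1 (*C4b*, adjusted p = 0.00324), beside 0.949% of the 31191 genes then tested. The count was 0 under every other edgeR and limma setting, including edgeR with one library left out. DESeq2 with one library left out called *C4b* in 6 of 6 fits and *Serping1* in 1 of 6. DESeq2 called 1 of the other complement genes against 0. Over all genes, edgeR called 8, DESeq2 335, edgeR without a filter 296, and edgeR without WT replicate 2 and *Plxnb1-/-* replicate 3 called 23. With one library left out it called between 4 and 25, the most without WT replicate 2. A replicate block gave 5 calls over all genes and 0 of the 9, and moved *C4b* to 0.73 (edgeR's adjusted p = 0.163). The labels pair no replicates, so the numbers were not taken as pairs. Deviations of same-numbered replicates from their genotype mean had correlations of −0.0218, 0.00782 and 0.0653 across genes. With 3 replicates per genotype these values cannot exclude a pairing. The causes were not tested.

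*C4b* kept a log2 fold change of 0.59 to 0.89 and *Serping1* of 0.26 to 0.47 over 23 alternatives each, with adjusted p from 1.69e-10 to 0.491 and from 0.00906 to 0.683 (edgeR, DESeq2 or limma). Without both outlying libraries edgeR gave 0.63 and 0.44. The sign turned without WT replicate 3 for *C1ra* (0.048 in DESeq2) and without WT replicate 2 for *Cd55* (−0.015 in DESeq2). Without *Plxnb1-/-* replicate 2 it turned for *C3* (−0.27 in edgeR and DESeq2). For *Clu* it turned in edgeR without *Plxnb1-/-* replicate 3 (0.0039), without WT replicate 1 (0.0059) and without both outlying libraries (0.082). DESeq2 kept the sign of *Clu* without *Plxnb1-/-* replicate 3 (−1.98e-04) and without WT replicate 1 (−0.00577). With one library left out, edgeR's log2 fold change ranged from −0.13 to 0.051 for *C1ra*, from −0.27 to 0.40 for *C3*, from −0.011 to 0.28 for *Cd55* and from −0.53 to 0.0059 for *Clu*. *C3* and *Cfi* rest on 12 to 44 counts per library and also differ widely between cultures of one genotype.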
